A study of Homo sapiens with 12 samples.

Results

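A group of 10 secreted factors that act on blood vessels was followed in A375 human melanoma cells: VEGFA, VEGFB, VEGFC, THBS1, THBS2, ANGPTL4, ESM1, EDN1, ADM and PGF. They were chosen by name, each was read from the row of the deposited table that lists its symbol, and all 10 of 10 were found, each on 1 of 31585 distinct loci. The study compared cells carrying an empty retroviral vector, MSCV-IRES-Hygro (Control), with cells carrying human YAP mutants in the same vector, to find the genes that depend on YAP and on its TEAD partners. YAPS127A lacks the serine through which the LATS kinases hold YAP in the cytoplasm, YAP2SA also carries S381A and also escapes degradation, and YAPS127A,S94A carries the S127A change but cannot bind TEADs. Each of the 4 groups had 3 libraries from separate platings of 1 hygromycin-selected line in DMEM with 10% fetal bovine serum, so the spread between libraries is that between cultures of one line. The condition field of the YAP2SA sample records and the design text of the series both add S94A, the change that blocks TEAD binding, to this genotype. The titles of these samples do not, and they were taken as YAP2SA by title. The records give 24 h in culture before lysis and the methods give 48 h.

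VEGFA, VEGFB, VEGFC and placental growth factor (PGF) are ligands of the VEGF receptors, and VEGFC is best known for the growth of lymphatic vessels. ESM1 (endocan) is a proteoglycan secreted by endothelial cells, and ANGPTL4 is both an inhibitor of lipoprotein lipase and a regulator of vessel permeability. THBS1 and THBS2 are matricellular proteins that restrain angiogenesis, EDN1 is the precursor of the vasoconstrictor endothelin-1, and ADM is the precursor of the vasodilator adrenomedullin. YAP has no DNA-binding domain of its own and reaches its target genes mainly through the TEAD factors, whose binding sequence is known as the MCAT element.

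The promoter windows of the members with the largest differences and of both thrombospondins are shown here because the groups differ by whether YAP can use TEADs. Each window runs from 250 bases before to 50 bases after the start of the gene in RefSeq (GRCh38.p14), and 9 of 10 members were matched, all but VEGFA. Capitals mark CATTCC (the MCAT element), ACGTG (the core of the hypoxia response element) or TATAAA (the TATA box) on either strand.
ESM1, chr5:54985544-54985843, minus strand: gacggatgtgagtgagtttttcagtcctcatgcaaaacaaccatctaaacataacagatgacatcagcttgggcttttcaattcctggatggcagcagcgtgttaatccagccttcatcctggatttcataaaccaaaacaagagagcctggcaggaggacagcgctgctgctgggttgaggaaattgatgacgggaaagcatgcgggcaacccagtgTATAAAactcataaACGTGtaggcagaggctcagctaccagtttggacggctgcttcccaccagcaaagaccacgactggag
ADM, chr11:10304823-10305122, plus strand: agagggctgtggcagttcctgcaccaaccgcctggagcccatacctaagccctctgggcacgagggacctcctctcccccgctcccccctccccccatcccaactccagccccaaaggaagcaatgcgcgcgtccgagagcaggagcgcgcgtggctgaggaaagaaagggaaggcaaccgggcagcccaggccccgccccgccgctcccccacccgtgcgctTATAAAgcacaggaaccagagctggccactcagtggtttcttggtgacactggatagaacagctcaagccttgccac
THBS1, chr15:39580829-39581128, plus strand: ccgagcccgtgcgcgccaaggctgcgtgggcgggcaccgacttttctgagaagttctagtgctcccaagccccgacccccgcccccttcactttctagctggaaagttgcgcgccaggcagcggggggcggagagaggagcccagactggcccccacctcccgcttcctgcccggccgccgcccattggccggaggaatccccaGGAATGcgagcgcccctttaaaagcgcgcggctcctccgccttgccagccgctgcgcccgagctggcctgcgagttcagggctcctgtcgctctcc
ANGPTL4, chr19:8363905-8364204, plus strand: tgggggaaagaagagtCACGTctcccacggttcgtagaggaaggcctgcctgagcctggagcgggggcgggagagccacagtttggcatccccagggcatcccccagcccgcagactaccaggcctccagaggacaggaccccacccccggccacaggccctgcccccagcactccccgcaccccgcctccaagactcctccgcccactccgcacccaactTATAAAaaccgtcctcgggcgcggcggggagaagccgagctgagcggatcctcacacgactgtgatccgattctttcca
THBS2, chr6:169253797-169254096, minus strand: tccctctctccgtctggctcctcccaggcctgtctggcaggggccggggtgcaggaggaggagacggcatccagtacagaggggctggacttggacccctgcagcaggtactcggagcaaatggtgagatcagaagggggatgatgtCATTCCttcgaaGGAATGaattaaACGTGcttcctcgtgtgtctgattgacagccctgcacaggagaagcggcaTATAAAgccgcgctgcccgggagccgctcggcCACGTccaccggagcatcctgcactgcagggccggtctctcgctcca

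The 5 windows differ in which letters they hold. CATTCC was present in 1 copy in the THBS1 window, at position -46, and in 2 copies facing each other in the THBS2 window, at positions -103 and -91, whereas the windows of ESM1, ADM, ANGPTL4, VEGFB, VEGFC and PGF held none. One of the 3 EDN1 windows held it, at position -129. Of 35116 promoter windows of the same length, 14% held CATTCC. The TATA box letters were present in the windows of ESM1, ADM, ANGPTL4, THBS2 and 1 of the 3 of EDN1, between positions -32 and -27, and in 11.5% of all windows. ACGTG was present in those of ESM1, ANGPTL4, THBS2 and 2 of the 3 of EDN1, and in 21.4% of all windows. The AP-1 motif TGANTCA was in none of the members' windows and in 7.71% of all windows. No motif overlapped another. These matches describe the letters of short windows only, and binding was not measured here.

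**Figure D1:**
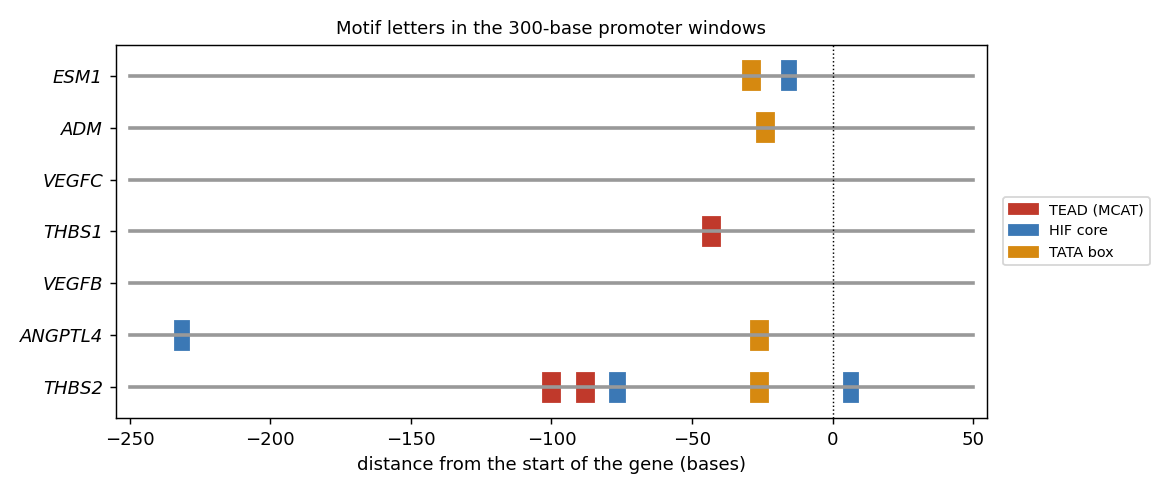
Positions of the motif letters in the promoter windows of 7 members, with the distance from the start of the gene in bases on the x axis and 1 row per gene. Grey lines are the windows and coloured boxes are the TEAD (MCAT), HIF core and TATA letters searched for. The TEAD letters appear in THBS1 and THBS2, and the TATA box in ESM1, ADM, ANGPTL4 and THBS2.

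The deposited values are log2(FPKM + 1), where FPKM counts sequenced fragments relative to the length of the transcript and to all mapped fragments of a library, so levels can be compared between genes per length. No read counts come with them, and the depth of each library is unknown. Summed over loci, FPKM ranged from 790865 to 901558 between libraries. YAP1 itself, which includes the introduced gene, was at 34.1 and 33.0 FPKM in Control libraries 1 and 2 and at 130 to 187 FPKM in the 9 libraries of the YAP mutants. Control library 3 had 172 FPKM of YAP1, against its label, so comparisons with Control are given with and without it where it matters. Of the melanocytic markers, MITF, SOX10 and S100B were at 1 FPKM or more in each Control library, whereas PMEL, MLANA, TYR, DCT and TYRP1 were below 1 FPKM in each of the 12 libraries. Endothelial cells and leukocytes were looked for with marker lists, whose values are given beside the related genes further on.

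Of the 10 members, 8 reached 1 FPKM in 3 libraries or more and were tested with limma together with all other such loci, 15055 in all. A member was called changed at a Benjamini-Hochberg adjusted p under 0.05 over all of these loci. THBS2 and EDN1 were below 1 FPKM in each of the 12 libraries and were not tested in this way. ESM1 passed the filter only through the YAPS127A and YAP2SA libraries, and ANGPTL4 did not reach 1 FPKM in YAP2SA cells. Both are included in the counts of called members below, but their differences from the groups below 1 FPKM are descriptions. Log2 fold changes were taken from log2(FPKM + 1), so the 1 that is added makes them too small for genes with low levels, and ratios of mean FPKM are given beside them.

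In A375-YAP2SA cells, 5 of the 8 tested members were higher than in Control cells (VEGFB, VEGFC, THBS1, ESM1 and ADM) and 2 were lower (ANGPTL4 and PGF). Of all tested loci, 22.9% were higher and 19.5% were lower in this comparison. In RNA from whole cultures, fewer cells expressing a gene and less RNA per cell cannot be told apart. In A375-YAPS127A cells, 3 members were higher than in Control cells (VEGFC, ESM1 and ADM), against 4.56% of all loci. None was lower at an adjusted p under 0.05 in limma, against 1.75% of all loci, and 1, ANGPTL4, was lower at an unadjusted p under 0.05. In A375-YAPS127A,S94A cells, none of the 8 members was called in either direction by limma, and 1, VEGFC, was lower at an unadjusted p under 0.05. In that comparison 0.0864% of all loci were higher and 0.093% were lower.

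The mutants were also compared with each other. Between YAP2SA and YAPS127A cells, 3 members were higher in YAP2SA cells (VEGFC, ESM1 and ADM), against 18.3% of all loci, and 2 were lower (ANGPTL4 and PGF), against 14.5%. Between YAPS127A and YAPS127A,S94A cells, which differ in the serine needed for TEAD binding, 4 were higher in YAPS127A cells (VEGFC, THBS1, ESM1 and ADM), against 6.36% of all loci, and 1 was lower (ANGPTL4), against 4.31%. Between YAP2SA and YAPS127A,S94A cells, 5 were higher in YAP2SA cells (VEGFB, VEGFC, THBS1, ESM1 and ADM), against 23.2%, and 2 were lower (ANGPTL4 and PGF), against 20.3%. The 3 comparisons with Control share the Control libraries, and the 3 between mutants share libraries with these and with each other.

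**Figure D2:**
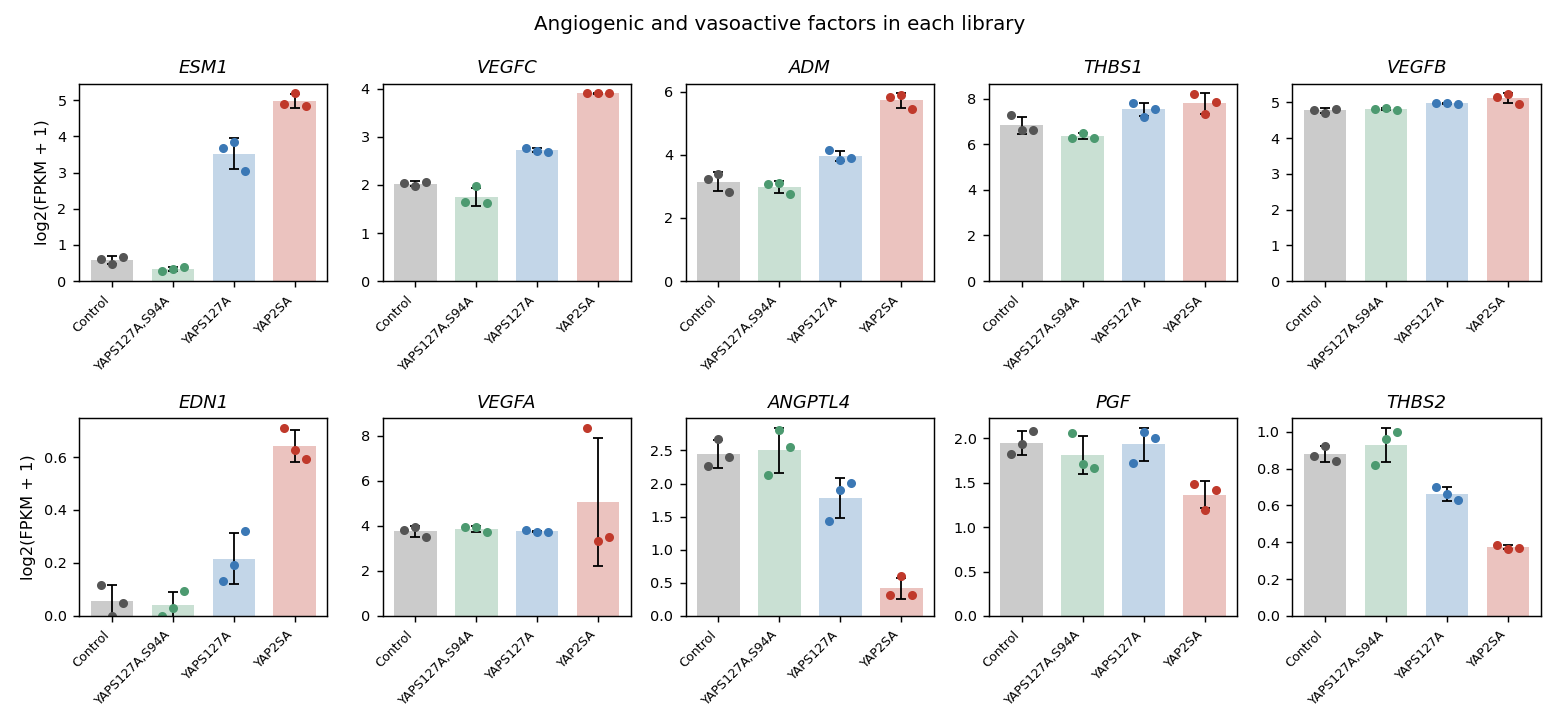
Log2(FPKM + 1) of the 10 members (y axis, a separate scale for each gene) in the 4 groups. Points are the 3 libraries of a group in the order of their numbers, bars are group means and whiskers are SD. ESM1, VEGFC and ADM rise from Control through YAPS127A to YAP2SA, ANGPTL4 and THBS2 are lowest in YAP2SA cells, and VEGFA is high in YAP2SA library 1 at 324 FPKM.

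ESM1 had the largest log2 fold change of the 8 tested members in YAP2SA against Control cells. It lies on chromosome 5 (GRCh37 54273695 to 54318499, minus strand). Its FPKM was 0.517, 0.389 and 0.600 in the Control libraries and 0.224, 0.265 and 0.308 in the YAPS127A,S94A libraries. In YAPS127A cells the values were 11.8, 13.4 and 7.22, and in YAP2SA cells they were 28.8, 35.7 and 27.8. None of the 4 groups overlapped another. Per length, ESM1 stood above 2.83% of the tested loci in Control cells and above 77.2% of them in YAP2SA cells.

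The mean FPKM of ESM1 was 61.3-fold higher in YAP2SA than in Control cells, with a log2 fold change of 4.40 (SE 0.18). In YAPS127A cells it was 21.5-fold higher than in Control cells, with a log2 fold change of 2.94 (SE 0.18). Against YAPS127A,S94A cells the ratio was 40.7-fold for YAPS127A and 116-fold for YAP2SA. These ratios rest on levels below 1 FPKM in the lower group, and ESM1 was tested only through the higher groups, so they are descriptions. When all loci were tested without the filter, the limma adjusted p against Control cells was 6.4e-08 for YAP2SA and 2.3e-05 for YAPS127A. The 2.85-fold difference between YAP2SA and YAPS127A cells, both above 1 FPKM, was called, with a log2 fold change of 1.46 (SE 0.18, limma adjusted p = 1.2e-04). The lower level in YAPS127A,S94A than in Control cells was not called, at a log2 fold change of -0.24 (SE 0.18, limma adjusted p = 1).

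VEGFC showed the same order of groups with little spread. It lies on chromosome 4 (GRCh37 177604689 to 177714076, minus strand). The Control libraries had 3.10, 2.92 and 3.18 FPKM of VEGFC, and the YAPS127A,S94A libraries had 2.14, 2.92 and 2.07. The YAPS127A libraries had 5.79, 5.48 and 5.46 FPKM, and the YAP2SA libraries had 14.0, 13.9 and 13.9. The Control and YAPS127A,S94A groups overlapped, and the other groups were apart from these and from each other. VEGFC was 4.55-fold higher in YAP2SA than in Control cells, with a log2 fold change of 1.88 (SE 0.09, limma adjusted p = 4.3e-08). The YAPS127A cells had 1.82-fold more than Control cells, with a log2 fold change of 0.69 (SE 0.09, limma adjusted p = 9.0e-04). YAP2SA cells were 2.5-fold above YAPS127A cells (limma adjusted p = 3.0e-06), and YAPS127A cells were 2.34-fold above YAPS127A,S94A cells (limma adjusted p = 7.1e-05). YAPS127A,S94A cells differed from Control cells by -0.28 on the log2 scale (SE 0.09), at an unadjusted p of 0.011 and a limma adjusted p of 0.864.

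VEGFB and VEGFA, the other VEGF ligands, differed less or in a single library. VEGFB, on chromosome 11, was at 26.8, 25.1 and 27.3 FPKM in Control cells and at 34.7, 36.8 and 30.1 FPKM in YAP2SA cells. These groups did not overlap, and VEGFB was 1.28-fold higher in YAP2SA cells, with a log2 fold change of 0.34 (SE 0.07, limma adjusted p = 0.00213). In YAPS127A cells VEGFB was between 30.1 and 30.8 FPKM, 1.15-fold above Control cells (limma adjusted p = 0.131), and in YAPS127A,S94A cells it was between 26.4 and 27.9 FPKM. YAP2SA cells had 1.25-fold more VEGFB than YAPS127A,S94A cells (limma adjusted p = 0.00432).

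VEGFA, the ligand best known for driving the growth of blood vessels, lies on chromosome 6 (GRCh37 43737921 to 43754224, plus strand), and its row also lists the symbol HV497030. The Control libraries had 13.2, 14.6 and 10.2 FPKM, and the YAP2SA libraries had 324, 9.09 and 10.2. The YAPS127A libraries lay between 12.2 and 12.8 FPKM and the YAPS127A,S94A libraries between 12 and 14.4. YAP2SA library 1 thus stood apart from the other 11 libraries, which reached at most 14.6 FPKM. A single library exceeded the other 11 by at least 4 on the log2 scale at 2 of the 15055 tested loci, and VEGFA was 1 of them. With this library included, the log2 fold change of VEGFA in YAP2SA against Control cells was 1.30 (SE 1.03, limma adjusted p = 0.347). Without it the value was -0.35 (limma adjusted p = 0.0684), and against YAPS127A,S94A cells it was -0.45 (limma adjusted p = 0.025). The large SE applies to each VEGFA comparison, because the 4 groups share one estimate of the spread.

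PGF, on chromosome 14 (GRCh37 75408537 to 75422329, minus strand), was lower in YAP2SA cells. Its FPKM was 2.54, 2.83 and 3.24 in Control cells and 1.80, 1.29 and 1.68 in YAP2SA cells. The YAPS127A libraries had 2.30, 3.20 and 3.03, and the YAPS127A,S94A libraries had 3.18, 2.26 and 2.18. The YAP2SA libraries were below all 9 other libraries, which overlapped. PGF was 1.8-fold lower in YAP2SA than in Control cells, with a log2 fold change of -0.58 (SE 0.14, limma adjusted p = 0.00641). It was 1.79-fold lower than in YAPS127A cells (limma adjusted p = 0.01). The fall of 1.6-fold against YAPS127A,S94A cells had a limma adjusted p of 0.0243, which became 0.0917 without YAP2SA library 2 and 0.0925 without YAPS127A,S94A library 1. YAPS127A cells differed from Control cells by -0.01 on the log2 scale (SE 0.14, limma adjusted p = 0.974).

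The makeup of the 4 VEGF-family members was then read within each library, as shares of the sum of the FPKM of VEGFA, VEGFB, VEGFC and PGF. VEGFC made up 6.42% to 7.24% of this sum in the Control libraries and 10.6% to 11.3% in the YAPS127A libraries. In YAP2SA libraries 2 and 3 it made up 22.8% and 24.9%, and in library 1, where VEGFA was 86.5% of the sum, it made up 3.74%. VEGFA made up 23.2% to 32.1% in the Control libraries and 14.9% and 18.3% in YAP2SA libraries 2 and 3. The share of each ligand therefore depended on the VEGFA value of library 1, while the FPKM of VEGFC itself did not.

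THBS1 was the most abundant of the members per length in Control cells, above 94% of the tested loci. It lies on chromosome 15 (GRCh37 39873280 to 39891667, plus strand), with the CATTCC copy shown in its window. The Control libraries had 152, 97.0 and 97.6 FPKM, and the YAPS127A,S94A libraries had 75.3, 88.8 and 76.4. The YAPS127A libraries had 222, 146 and 187 FPKM, and the YAP2SA libraries had 293, 157 and 231. The YAP2SA libraries were above those of Control cells, but the lowest of the YAPS127A libraries lay below the highest Control library. THBS1 was 1.97-fold higher in YAP2SA than in Control cells, with a log2 fold change of 0.96 (SE 0.24, limma adjusted p = 0.00919). YAPS127A cells were 1.6-fold above Control cells, which was not called (log2 fold change 0.69, SE 0.24, limma adjusted p = 0.143). YAPS127A cells were 2.31-fold above YAPS127A,S94A cells, which was called (log2 fold change 1.18, SE 0.24, limma adjusted p = 0.0118). YAP2SA and YAPS127A cells did not differ beyond their spread (log2 fold change 0.27, SE 0.24, limma adjusted p = 0.443).

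THBS2 was low in all groups and lowest in YAP2SA cells. It lies on chromosome 6 (GRCh37 169615875 to 169654145, minus strand). The values were 0.824, 0.899 and 0.793 FPKM in Control cells, 0.767, 0.948 and 0.999 in YAPS127A,S94A cells, 0.626, 0.581 and 0.544 in YAPS127A cells and 0.306, 0.288 and 0.290 in YAP2SA cells. Control and YAPS127A,S94A cells overlapped, and each other pair of groups was apart. The mean was 2.85-fold lower in YAP2SA than in Control cells and 1.98-fold lower than in YAPS127A cells. A two-sided exact permutation test gave p = 0.1 for both, the smallest it can give. When all loci were tested without the filter, the log2 fold change against Control cells was -0.51 (SE 0.05, limma adjusted p = 4.5e-05). Each YAP2SA library thus had more THBS1 and less THBS2 than each Control library.

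ANGPTL4 fell most of the tested members. It lies on chromosome 19 (GRCh37 8428173 to 8439254, plus strand). The Control libraries had 3.81, 5.39 and 4.31 FPKM and the YAPS127A,S94A libraries had 3.39, 6.02 and 4.87. The YAPS127A libraries had 1.72, 2.72 and 3.02 FPKM, and the YAP2SA libraries had 0.251, 0.519 and 0.247. The groups formed 3 separate levels, with Control and YAPS127A,S94A cells overlapping at the top. ANGPTL4 was 13.3-fold lower in YAP2SA than in Control cells, with a log2 fold change of -2.04 (SE 0.20). It was 7.34-fold lower than in YAPS127A cells, with a log2 fold change of -1.37 (SE 0.20). These 2 differences are descriptions, because ANGPTL4 was below 1 FPKM in YAP2SA cells and was tested only through the other groups. When all loci were tested without the filter, their limma adjusted p was 3.4e-05 and 8.7e-04. YAPS127A cells were 1.81-fold below Control cells, which was not called (limma adjusted p = 0.083), and 1.91-fold below YAPS127A,S94A cells, which was called at a limma adjusted p of 0.0453. That last call was lost under 13 alternatives, at limma adjusted p values of 0.052 to 0.136. Among these were fits without Control library 1 or 3, any of the 3 YAP2SA libraries, YAPS127A library 1 or 2, or YAPS127A,S94A library 2 or 3. With the replicate number as a block that call was kept, at a limma adjusted p of 0.00676. The difference between YAPS127A and Control cells was then called as well, at a limma adjusted p of 0.0132.

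The vasoactive peptides ADM and EDN1 were both highest in YAP2SA cells. ADM lies on chromosome 11 (GRCh37 10326620 to 10328944, plus strand). It was at 8.35, 9.59 and 6.08 FPKM in the Control libraries and at 7.44, 7.65 and 5.73 FPKM in the YAPS127A,S94A libraries. The YAPS127A libraries had 16.8, 13.4 and 13.9 FPKM, and the YAP2SA libraries had 55.6, 58.4 and 43.0. Control and YAPS127A,S94A cells overlapped, and the other groups were apart. ADM was 6.54-fold higher in YAP2SA than in Control cells, with a log2 fold change of 2.57 (SE 0.17, limma adjusted p = 5.7e-07). It was 3.57-fold higher than in YAPS127A cells (limma adjusted p = 2.0e-05). YAPS127A cells were 1.83-fold above Control cells (log2 fold change 0.81, SE 0.17, limma adjusted p = 0.0177), and 2.11-fold above YAPS127A,S94A cells (limma adjusted p = 0.00452). The adjusted p of YAPS127A against Control cells became 0.0559 without Control library 3 and 0.0684 without YAPS127A library 1.

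EDN1, on chromosome 6 (GRCh37 12290594 to 12297427, plus strand), was close to the floor of these data. It was listed at 0.0852, 0 and 0.0353 FPKM in the Control libraries and at 0, 0.0203 and 0.0681 FPKM in the YAPS127A,S94A libraries. The YAPS127A libraries had 0.0966, 0.142 and 0.250 FPKM, and the YAP2SA libraries had 0.636, 0.544 and 0.506. YAP2SA cells were above all other groups, and the highest Control library was just below the lowest YAPS127A library. The exact permutation test gave p = 0.1 for YAP2SA against Control cells, the smallest it can give. Without the filter, the log2 fold change was 0.59 (SE 0.05, limma adjusted p = 1.7e-05) for YAP2SA and 0.16 (SE 0.05, limma adjusted p = 0.162) for YAPS127A against Control cells. No fold is given, because libraries of the lower groups were listed at 0 and no counts are known.

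**Figure D3:**
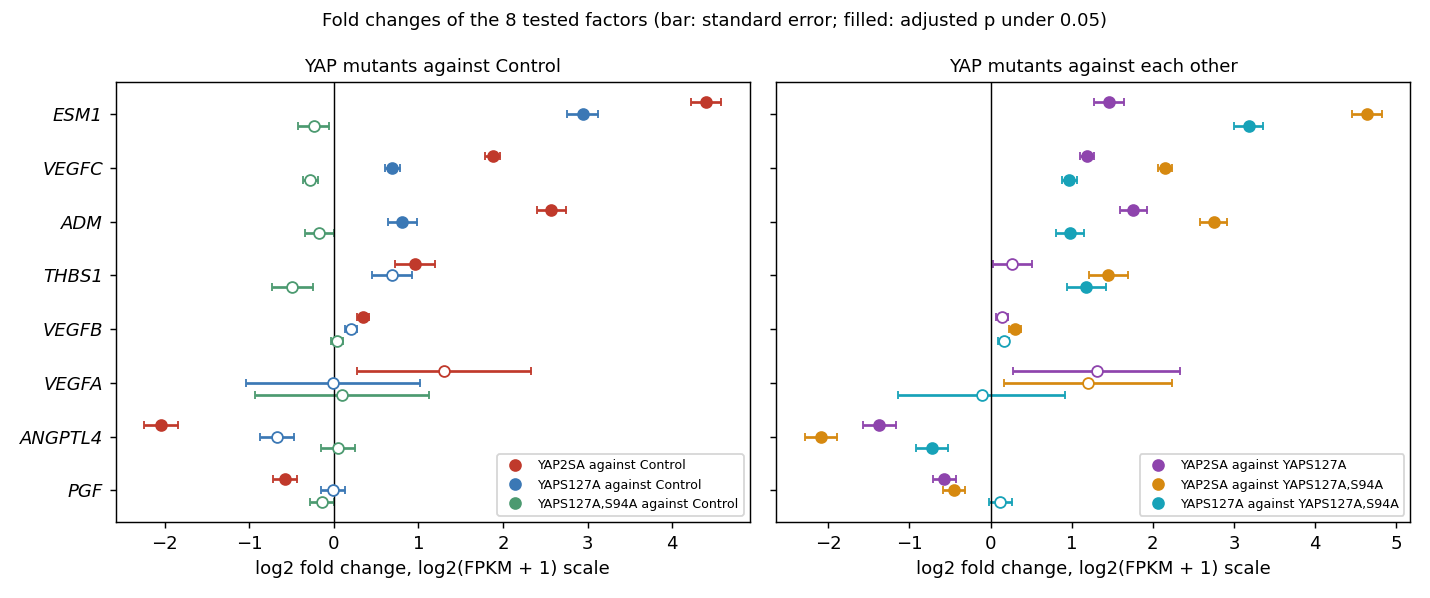
Log2 fold changes (x axis, log2(FPKM + 1) scale) of the 8 tested members in the 6 comparisons, the mutants against Control on the left and against each other on the right. Points are limma estimates, bars are standard errors and filled points have an adjusted p under 0.05. Filled points of ESM1 against Control or YAPS127A,S94A, and of ANGPTL4 in the comparisons of YAP2SA, are descriptions. ESM1 reaches 4.40 in YAP2SA against Control, ANGPTL4 is at -2.04, and the open points of YAPS127A,S94A against Control lie between -0.49 and 0.10.

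The loci most like each tested member over the 12 libraries, by Pearson correlation of the deposited values, are given as a description, since the libraries of a group share its level. ESM1 was followed by BASP1 and UCA1 (r rounded to 1 for both), whose mean FPKM was 0.436 and 0.469 in Control cells and 91.2 and 118 in YAP2SA cells. VEGFC was followed by SERINC2 and AK125288 (r rounded to 1 for both), ADM by ADORA2B, an adenosine receptor (r = 0.99), and THBS1 by the locus of EHD4 and SPTBN5 (r = 0.96) and SLC7A5, an amino acid transporter (r = 0.95). ANGPTL4 was followed by PDLIM4 and the locus of DKFZp686E10196 and LOC654433 (r = 0.99 for both), and PGF by MEIS1 (r = 0.95) and CCDC40 (r = 0.92). For VEGFB these were CTSL2 (r = 0.96) and the locus of ZFP36L1 and C14orf181 (r = 0.95). For VEGFA, where 1 library sets the pattern, they were the locus of AK128346, BC144457 and MIR570 (r = 0.93) and that of FAM86B1 and FAM86B2 (r = 0.83).

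The genes around these factors were read from 10 lists of receptors, related ligands and target genes, with 82 genes tested. In YAP2SA against Control cells, 26 were higher and 34 were lower, and in YAPS127A against Control cells 16 were higher and 4 were lower. Without Control library 3 these counts were 25 and 31, and 12 and 2. Some of these genes were below 1 FPKM in each library of the lower group and were tested only through other libraries, so the filter could favour a difference. This held for 8 of the 26 higher and 3 of the 34 lower genes in YAP2SA against Control cells. In YAPS127A against Control cells it held for 6 of the 16 and 1 of the 4. These genes were MME, ADM2, TIE1, PDGFB, EDIL3, SEMA3D, NPPB and NOS2 among the higher genes of YAP2SA cells and FGF1, IL8 and NPPC among the lower ones. Their values below are descriptions. In YAPS127A,S94A against Control cells none was called by limma, and 2 were higher and 2 lower at an unadjusted p under 0.05. The shares of all tested loci given above for these comparisons are the background of each count that follows from the fit of all 12 libraries. For the counts without a library, the share of all tested loci is not given here. Whether those drops are particular to these genes cannot be read from them.

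Of 5 VEGF receptors and co-receptors in the table, 3 were tested, and in YAP2SA against Control cells 1 was higher and 2 were lower. NRP2, a co-receptor for VEGFC, fell from 15.6 ± 1.29 to 3.85 ± 0.27 FPKM (SD, n = 3, limma adjusted p = 4.1e-07). FLT1, the receptor of VEGFA, VEGFB and PGF, whose row also lists BC048278, fell from 5.4 ± 0.175 to 1.06 ± 0.17 FPKM (SD, n = 3, limma adjusted p = 7.0e-06). NRP1, a co-receptor of VEGFA, rose from 15.8 ± 1.07 to 20 ± 1.14 FPKM (SD, n = 3, limma adjusted p = 0.0141), a call that was lost without Control library 3. In YAPS127A against Control cells none of the 3 was called by limma, and none had an unadjusted p under 0.05. The log2 fold changes of the 3 in YAP2SA against Control cells were -1.78 (NRP2), -1.64 (FLT1) and 0.32 (NRP1). The median of all tested loci was 0.01.

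Among 5 tested thrombospondin receptors and relatives, 1 was higher and 1 lower in YAP2SA than in Control cells. LRP1, an endocytic receptor, had 4.7, 4.18 and 22.1 FPKM in the Control libraries and 19.5, 33.1 and 25.1 in the YAP2SA libraries (limma adjusted p = 0.0311), so Control library 3 was within the range of the YAP2SA cells. CD47, a receptor of THBS1, was at 34.9 ± 0.911 FPKM in Control and 30.6 ± 1.91 FPKM in YAP2SA cells (SD, n = 3, limma adjusted p = 0.0268), and this call was lost without Control library 3 and without YAP2SA library 1. Of the endothelin system, 4 genes were tested. MME (neprilysin), a membrane protease that degrades endothelin and other peptides, was at 0.185 ± 0.0767 FPKM in Control and 85.4 ± 17.7 FPKM in YAP2SA cells (SD, n = 3, log2 fold change 6.17), and it was tested only through the YAP2SA and YAPS127A libraries. EDNRB, an endothelin receptor used by melanocytes, fell from 6.06 ± 1.26 to 2.33 ± 0.331 FPKM (SD, n = 3, limma adjusted p = 3.1e-04). Of the adrenomedullin system, 2 genes were tested. ADM2, a relative of ADM, was at 0.421 ± 0.191 FPKM in Control and 1.87 ± 0.278 FPKM in YAP2SA cells (SD, n = 3). It was below 1 FPKM in each of the other 9 libraries, so it was tested only through the YAP2SA libraries and could not be tested without YAP2SA library 1. RAMP1, a receptor partner, fell from 39 ± 6.52 to 20.2 ± 1.74 FPKM (SD, n = 3, limma adjusted p = 1.1e-04).

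Of the angiopoietins and relatives, 4 were tested in YAP2SA against Control cells. ANGPTL2 fell from 8.89 ± 0.833 to 2.81 ± 0.246 FPKM (SD, n = 3, limma adjusted p = 3.2e-07), and ANGPT1, a ligand of the TEK receptor, fell from 5.43 ± 0.227 to 3.91 ± 0.423 FPKM (SD, n = 3, limma adjusted p = 0.00474). TIE1, an orphan receptor of endothelial cells, was at 0.174 ± 0.123 FPKM in Control and 2.76 ± 1 FPKM in YAP2SA cells (SD, n = 3), and it was tested only through the YAP2SA and YAPS127A libraries. TIE1 is also 1 of 10 endothelial markers. The summed FPKM of these markers was 2.18 to 3.05 in the Control libraries and 4.09 to 5.76 in the YAP2SA libraries. It was 3.19 to 3.93 in the YAPS127A and 2.34 to 3.41 in the YAPS127A,S94A libraries. At 1 FPKM or more in each library were ESAM in Control and YAPS127A,S94A cells, TIE1 in YAP2SA cells and both in YAPS127A cells. From Control to YAP2SA cells the mean of CDH5 went from 0.118 to 0.452 FPKM, that of TEK from 0.0421 to 0.346 FPKM and that of KDR from 0.761 to 0.171 FPKM. ESAM, the other tested marker, whose row also lists VSIG2, was lower, at 1.42 and 0.831 FPKM (limma adjusted p = 0.0363). This call was lost without Control library 3. PECAM1, VWF, CLDN5, EMCN and ERG reached at most 0.215 FPKM in any of the 12 libraries. The part of these markers in the other results was not tested. Of the 6 leukocyte markers, LYZ and CD68 were above 1 FPKM in each library, and PTPRC and CD3E reached at most 0.0644 FPKM. LYZ, whose row also lists E02193, fell from 15.9 ± 1.38 to 2.51 ± 0.225 FPKM (SD, n = 3, limma adjusted p = 1.5e-08). CD68, whose row also lists MPDU1, rose from 80.2 ± 5.41 to 111 ± 4.72 FPKM (SD, n = 3, limma adjusted p = 2.4e-04).

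Of 15 tested pro-angiogenic factors beyond the members, 7 were higher and 4 were lower in YAP2SA than in Control cells, with a median log2 fold change of 0.22. The 7 were PDGFA, PDGFB, PDGFC, HBEGF, MDK, EDIL3 and SEMA4D, and the 4 were FGF1, PTN, IL8 and FIGF, the last on a locus shared with PIR. MDK (midkine), a heparin-binding growth factor, rose from 73.6 ± 5.73 to 282 ± 34.1 FPKM (SD, n = 3, limma adjusted p = 9.5e-08). HBEGF, an EGF receptor ligand, rose from 2.45 ± 0.521 to 13.9 ± 1.77 FPKM (SD, n = 3, limma adjusted p = 3.9e-07), and PDGFC rose from 1.58 ± 0.414 to 9.91 ± 0.716 FPKM (SD, n = 3, limma adjusted p = 4.6e-07). EDIL3, an integrin ligand, was at 0.584 ± 0.308 FPKM in Control and 7.03 ± 0.637 FPKM in YAP2SA cells (SD, n = 3). In YAPS127A against Control cells 7 were higher and 1 was lower, and without Control library 3 these counts were 5 and 0.

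Of 11 tested anti-angiogenic factors, 4 were higher and 6 were lower in YAP2SA than in Control cells, with a median log2 fold change of -0.31, and without Control library 3 the 6 were 5. The semaphorins SEMA3F and SEMA3A, guidance cues that bind neuropilins, rose from 1.48 ± 0.0906 to 16.5 ± 1.39 FPKM and from 4.6 ± 0.28 to 30 ± 0.936 FPKM (SD, n = 3, limma adjusted p = 2.8e-09 and 1.1e-08). TIMP3, a metalloproteinase inhibitor, fell from 160 ± 5.04 to 63.2 ± 2.05 FPKM (SD, n = 3, limma adjusted p = 2.7e-07), and SERPINF1 (PEDF) fell from 9.1 ± 0.915 to 1.38 ± 0.436 FPKM (SD, n = 3, limma adjusted p = 1.2e-06). In YAPS127A against Control cells 3 were higher (SEMA3A, SEMA3D and SEMA3F) and none was lower by limma, also at an unadjusted p under 0.05, and without Control library 3 the 3 were 2.

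Of 6 other tested vasoactive genes, 4 were higher and 2 were lower in YAP2SA than in Control cells. NPPB, the precursor of brain natriuretic peptide, was at 0.0639 ± 0.0564 FPKM in Control and 80.4 ± 16.1 FPKM in YAP2SA cells (SD, n = 3, log2 fold change 6.24), and it was tested only through the YAP2SA and YAPS127A libraries. NPPC, the precursor of C-type natriuretic peptide, was at 11.6 ± 1.58 FPKM in Control and 0.25 ± 0.22 FPKM in YAP2SA cells (SD, n = 3, log2 fold change -3.34). DDAH1 and DDAH2, which degrade an inhibitor of nitric oxide synthases, rose from 6.13 ± 0.892 to 16.8 ± 0.938 FPKM and from 9.43 ± 0.549 to 17.7 ± 0.801 FPKM (SD, n = 3, limma adjusted p = 8.5e-07 and 2.9e-05).

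VEGFA, ADM, EDN1 and ANGPTL4 are known targets of the hypoxia-inducible factors, and ANGPTL4 is also a target of the PPAR receptors, so both target lists were read. Of 22 tested hypoxia targets, 6 were higher and 6 were lower in YAP2SA than in Control cells, with a median log2 fold change of 0.01, the same as that of all tested loci. NDRG1, whose row also lists AX746885, rose from 25.8 ± 1.42 to 62.2 ± 5.16 FPKM and SLC2A1, a glucose transporter, from 51.2 ± 6.33 to 94.1 ± 5.04 FPKM (SD, n = 3, limma adjusted p = 1.1e-06 and 8.3e-05). PFKFB3 and PFKFB4, regulators of glycolysis, the latter on a row shared with UCN2, fell from 38 ± 1.46 to 12.6 ± 1.05 FPKM and from 40.8 ± 12 to 6.33 ± 0.838 FPKM (SD, n = 3, limma adjusted p = 1.8e-08 and 2.2e-05). Of 10 tested PPAR targets, none was higher at an adjusted or unadjusted p under 0.05 by limma, and 9 were lower, with a median log2 fold change of -0.50. Without Control library 3, and also without YAP2SA library 1, 8 were lower. PDK4 fell from 6.88 ± 0.891 to 1.37 ± 0.136 FPKM, CPT1A from 16 ± 1.6 to 8.32 ± 0.186 FPKM and PLIN2 from 170 ± 20.1 to 113 ± 7.15 FPKM (SD, n = 3, limma adjusted p = 1.6e-06, 2.0e-05 and 2.6e-04). SLC25A20 fell from 12.2 ± 0.644 to 8.23 ± 0.478 FPKM (SD, n = 3, limma adjusted p = 0.00112). These genes act in fatty acid use and lipid storage. In YAPS127A against Control cells 1 of the 10 was lower, PDK4, and without Control library 3 none was called by limma, with 3 at an unadjusted p under 0.05. The part of hypoxia or PPAR signalling in the changes of the members was not tested.

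**Figure D4:**
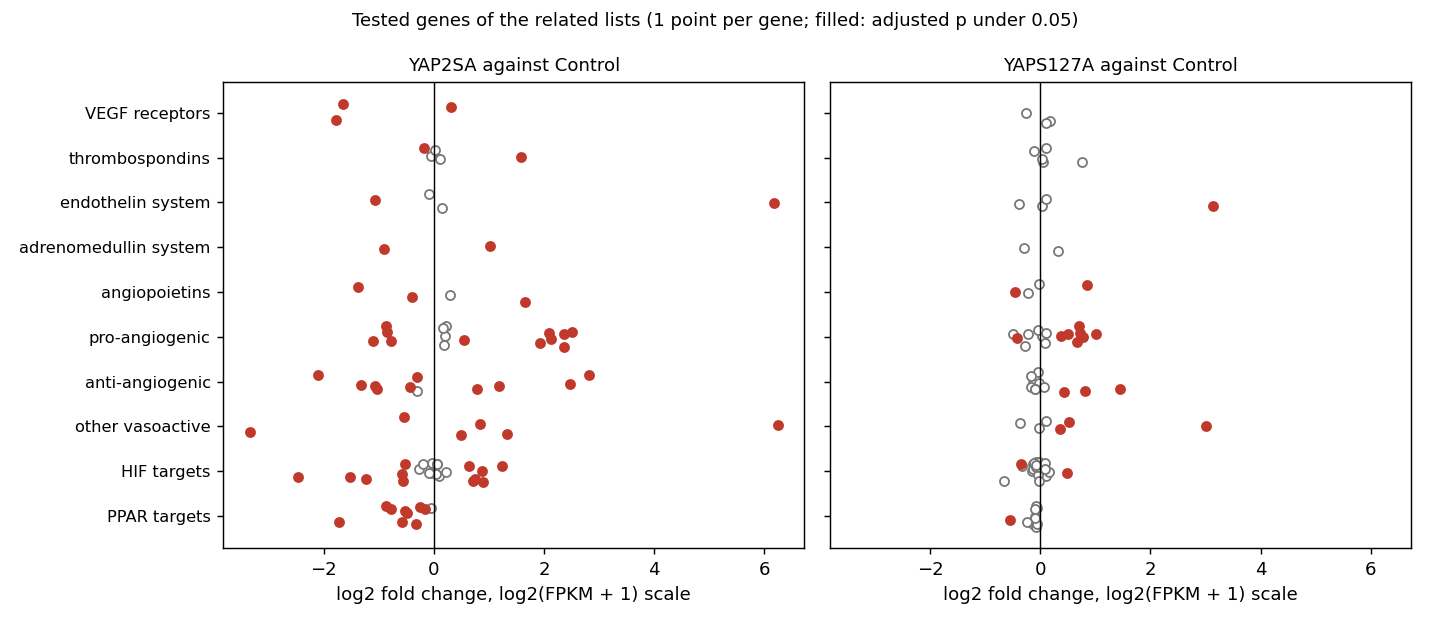
Log2 fold changes (x axis, log2(FPKM + 1) scale) of the tested genes of 10 related lists (rows) in YAP2SA against Control (left) and YAPS127A against Control (right). Each point is a gene, placed with random vertical offset, and filled points have an adjusted p under 0.05. MME at 6.17 and NPPB at 6.24 lie farthest to the right in YAP2SA cells, and 9 of the 10 PPAR targets are filled and below 0. Filled points of MME, NPPB and the other genes below 1 FPKM in each library of the lower group are descriptions.

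The melanocytic markers changed beside these genes. SOX10 fell from 263 ± 25.6 to 6.16 ± 1.44 FPKM and S100B from 46.9 ± 5.22 to 0.807 ± 0.211 FPKM in YAP2SA cells, whereas MITF rose from 8.59 ± 3.16 to 35 ± 5.54 FPKM (SD, n = 3, limma adjusted p = 1.5e-09, 1.1e-09 and 1.3e-04). The summed level of the 8 markers was 281 to 345 FPKM in the Control libraries, 231 to 300 in YAPS127A, 301 to 336 in YAPS127A,S94A and 39.6 to 49.8 in YAP2SA libraries. Their part in the changes of the secreted factors was not tested.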

How the data were processed

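RNA from 12 cultures of A375 cells, 3 per group, was sequenced. According to the submitters' processing notes and the methods, the authors aligned reads to hg19 (GRCh37) with TopHat2 2.0.4 and Bowtie2 2.0.0, assembled transcripts with Cufflinks 2.0.2, and deposited log2(FPKM + 1) values per gene locus, normalized to transcript length and mapped fragments. How reads with several alignments were divided is not given in the sources used here. Of 31588 entries, 3 identical ones were removed. Whole reads could not be recovered from the low values (at most 5.44% of low loci shared a step), so precision rests on the 3 libraries per group.

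Loci that reached 1 FPKM in 3 libraries or more entered a single fit of the 12 libraries, with a mean for each group and an intensity trend (limma 3.58.1, R 4.3.3). For members below this filter, two-sided exact permutation tests were used, which cannot give less than 0.1 with 3 libraries against 3. The fit was tested on simulated data for YAP2SA against Control, where it called 189 of the 200 altered genes with the right sign, and 6 unaltered ones, among 14399 tested. The simulated noise was normal and only genes away from the floor were altered. The simulation therefore does not cover members near the floor, an outlying library such as that of VEGFA, or a comparison in which many loci change. The p-values measure the spread between platings of one line. The genes named were the members, YAP1, up to 4 called genes per list by smallest p in YAP2SA against Control, and the 2 loci most like each member, of which 1 is not reported here. FIGF, PDGFA, PDGFB, SEMA4D, FGF1, PTN, IL8, SEMA3D and NOS2 are named outside this rule, after their values were seen, only to complete the counts. Melanocytic, endothelial and leukocyte markers that were not called are named outside it as well. The members and lists were chosen with earlier results of these data known. Alternatives were other pseudocounts, filters, scalings, thresholds and libraries in the fit, no intensity trend, the replicate number as a block, and each library left out. Gene positions are from GENCODE for GRCh37, and promoter windows are from RefSeq (GRCh38.p14). Python 3.11.15 with matplotlib 3.10.9 drew the figures.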

Additional observations from a re-analysis of the deposited data

How the results depend on the processing

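Over 996 values of single members under an alternative, 964 kept their direction and their side of the threshold, 18 lost their call, 3 gained one and 11 changed sign. With a fold of mean FPKM over 2 asked as well, 4 of the 7 members changed in YAP2SA against Control were left, and 1 of the 3 in YAPS127A against Control, where 15.5% and 2.47% of all tested loci were left called. When 5 FPKM in 3 libraries or more was asked, 3 of the 5 changed in YAP2SA against YAPS127A were left, among 6 tested (34.4% of all loci tested then), and with an adjusted p under 0.01, 3 of the 5 in YAPS127A against YAPS127A,S94A (5.09% of all). VEGFA changed sign without YAP2SA library 1 in YAP2SA against Control (-0.35), YAPS127A (-0.34) and YAPS127A,S94A (-0.45), and rose to 2.16, 2.17 and 2.06 without YAP2SA library 2. VEGFA in YAPS127A against Control was -0.15 without Control library 3, 0.02 without Control library 1, 0.09 without Control library 2 and 0.00 without YAPS127A library 3, and in YAPS127A,S94A against Control it was -0.04 without Control library 3 and at most 0.20, without Control library 2. PGF in YAPS127A against Control was -0.08 without Control library 1, 0.05 without Control library 3 and 0.09 without YAPS127A library 1, and ANGPTL4 in YAPS127A,S94A against Control was -0.04 without Control library 1 and -0.11 without YAPS127A,S94A library 2 and reached 0.23 without YAPS127A,S94A library 1. Beside the calls named in the report, ADM in YAPS127A against Control was lost in a fit of the libraries compared (adjusted p = 0.0687), ANGPTL4 in YAPS127A against Control was gained with quantile normalization (adjusted p = 0.0438), and VEGFB in YAP2SA against YAPS127A without YAP2SA library 3 (adjusted p = 0.0177). The deviations of same-numbered libraries from their group means correlated between -0.149 and 0.163 over all tested loci. Not every library's deviations correlated best with those of its own number. These correlations cannot tell whether the numbers pair the samples for single genes. With the replicate number as a block, the SE fell from 0.20 to 0.12 for ANGPTL4, from 0.17 to 0.11 for ADM and from 0.24 to 0.19 for THBS1. It fell from 1.03 to 0.98 for VEGFA, rose from 0.14 to 0.15 for PGF and stayed the same for VEGFB, VEGFC and ESM1. With the replicate number as a block, 7, 4, 0, 5, 5 and 7 members changed in the 6 comparisons, in the order of the report's counts, beside 45.4%, 6.85%, 0.159%, 35.1%, 11.8% and 46.3% of all tested loci (ANGPTL4 in YAPS127A against Control added, adjusted p = 0.0132). Other scalings moved the median of all loci by less than 0.1 on the log2 scale. Summing the rows of a gene gave no value of its own, since each member has 1 row. Depth is unknown, so the precision of EDN1 and THBS2, below 1 FPKM, is unknown beyond the spread of 3 libraries.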
